A study of Rattus norvegicus with 40 samples.

Results

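The miR-129 family in rat plasma was represented by 3 rows of the deposited count matrix, rno-miR-129-5p, rno-miR-129-1-3p and rno-miR-129-2-3p, out of 752 miRNAs listed and 581 with a read in any library. The members were chosen by name, with earlier results of these data known, and all 3 had reads on both days. Plasma small RNA was sequenced from 20 adult male Sprague-Dawley rats on day 2 (D2) and again on day 9 (D9), which gave 40 libraries. The 16 injured rats had a traumatic brain injury (TBI) made by lateral fluid percussion, a pressure pulse applied to the dura through a craniotomy. In long-term video-EEG recordings made months later, 7 of them had unprovoked seizures (TBI+) and 9 had none (TBI−). The 4 sham rats had anesthesia and the same craniotomy without the impact, so an effect of the surgery is in every group. No rat was unoperated here. Plasma came from the tail vein, and aliquots of the same rat and day were pooled before RNA extraction.

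A microRNA is cut from the stem of a hairpin precursor, and either arm of that stem, 5p or 3p, can be loaded into an Argonaute protein, where bases 2 to 8 (the seed) select target mRNAs. miR-129 is enriched in neurons, where its 5p arm is known for repressing the potassium channel Kv1.1 and for a role in the homeostatic downscaling of synapses. Extracellular miRNAs in plasma are carried in vesicles or bound to proteins, and those enriched in brain are studied as markers of injury to it. The label brain-enriched rests on this background, since plasma libraries do not show the tissue a read came from.

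The rat has a pair of miR-129 genes, and their sequences show why the 3 rows hold 2 signals. The mature forms from RefSeq are printed with the seed in capitals.
rno-miR-129-5p: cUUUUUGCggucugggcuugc
rno-miR-129-1-3p: aAGCCCUUaccccaaaaag
rno-miR-129-2-3p: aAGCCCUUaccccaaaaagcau
The 5p form, of 21 bases, is the same from both genes. The 3p forms share a seed that differs from that of the 5p arm. No other mature rat miRNA in the RefSeq table had either seed, and 685 of the 752 deposited names had a sequence of the same name there. The hairpins are printed with both mature arms in capitals.
Mir129-1: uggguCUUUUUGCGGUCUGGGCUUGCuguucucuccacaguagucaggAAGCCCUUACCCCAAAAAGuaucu
Mir129-2: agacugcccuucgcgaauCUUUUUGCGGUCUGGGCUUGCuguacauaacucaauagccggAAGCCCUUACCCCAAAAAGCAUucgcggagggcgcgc
On assembly GRCr8, Mir129-1 lies on chromosome 4 from 58589711 to 58589782 on the plus strand, and Mir129-2 on chromosome 3 from 100657390 to 100657486 on the minus strand. The 19 bases of rno-miR-129-1-3p are the first 19 of the 22 bases of rno-miR-129-2-3p. Over those 22 bases the hairpins differed at 1 position, C20U, counted from the 5′ end of the 3p form with the base of Mir129-2 first. A read of the shared bases cannot be given to either gene.

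The counts followed these sequences. The 3p rows held the same number of reads in 26 of the 32 libraries in which either had any, and the largest difference was 3 reads. Their totals were 746 and 752 reads, so rno-miR-129-2-3p is given below for the 3p arm. The row of rno-miR-129-5p held 1872 reads, and its count was even in 31 of the 33 libraries with reads, so a read may have been entered at each gene. How reads that fit several genes were counted is not given in the sources used here. A constant doubling cancels in a ratio between groups, but in a comparison of the arms the 5p count was divided by 2.

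Library totals lay between 404542 and 2562083 counts on D2. On D9 they lay between 332161 and 2864893 in TBI rats, but between 140636 and 358202 in sham rats, where 3 reads of a miRNA amount to 8.38 to 21.3 CPM (counts per 1000000 counts of the library). An index of red blood cell RNA was taken as log2 of miR-451-5p over miR-23a-3p. It was −0.52 ± 0.66 in sham rats (SD, n = 4) and −0.28 ± 0.64 in TBI rats (n = 16) on D2. On D9 it was 1.13 ± 0.23 and 1.28 ± 0.63. Both parts of the ratio moved with the day in TBI rats, but in sham rats it was mainly miR-23a-3p. In sham rats miR-451-5p went from 2783 ± 916 to 3133 ± 1394 CPM (SD), within its spread, and mean miR-23a-3p from 3860 to 1515 CPM. In TBI rats they went from 3343 to 5874 CPM and from 3734 to 2205 CPM. By the library number in the sample titles, the 4 sham libraries of D2 and those of TBI+ rats 1 to 4 fell in the first of 3 runs of numbers, and no TBI− library of D2 did. The 4 sham libraries of D9 fell in the third run, so in sham rats the day and the run cannot be told apart. What the numbers stand for is not given, and no 2 libraries held identical counts.

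On D2, miR-129-5p and the 3p arm were higher in the plasma of TBI rats than of sham rats, by 5.46-fold and 5.74-fold in the fit over all miRNAs. By D9 both had fallen in TBI rats to a few reads per library, and no difference from sham was called. The levels of TBI+ and TBI− rats were not called different on either day. The study had already reported both arms as higher after TBI on D2 from these counts. For D2, miR-129-5p was also measured by quantitative PCR, in other plasma aliquots of the same rats. The study reported a higher mean after TBI by that method, but the difference from sham was not significant. It described the levels as very low and left the miRNA out of its later PCR work. The D2 rise given here therefore rests on the sequencing counts.

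In the sham rats of D2, miR-129-5p stood at 0, 33.6, 11.9 and 10.5 CPM, from 0, 44, 8 and 14 reads. In the 7 TBI+ rats the lowest level was 47.6 CPM, the median 71.0 and the highest 161. In the 9 TBI− rats the lowest was 34.9 CPM, the median 74.0 and the highest 95.3. The groups did not overlap, although the lowest TBI rat, TBI− rat 2 at 34.9 CPM from 26 reads, was close to sham rat 2 at 33.6 CPM. Of the 565 miRNAs with a read on D2, 7 (1.24%) had every TBI rat above every sham rat. The mean was 79.4 ± 31.2 CPM (SD, n = 16) in TBI rats and 14.0 ± 14.1 CPM (n = 4) in sham rats. In plasma, the number of cells that release a miRNA and the amount each releases cannot be told apart, and CPM is a share of a library and not a concentration.

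The edgeR quasi-likelihood test gave a log2 fold change (log2FC) of 2.45 for miR-129-5p (SE 0.45, adjusted p = 0.000634). An exact permutation test of the mean CPM, two-sided over 4845 arrangements of the 20 rats, gave p = 0.000619, or 0.0149 adjusted over the 24 tests of this kind. Of the miRNAs tested, 6.19% were called and 3.19% were called higher in TBI rats, 18 against 17 lower (17 and 6 with scaling to a single miRNA, miR-28-3p). Sham rat 2 held most of the sham reads, and without it the log2FC of miR-129-5p was 3.42 (SE 0.51, adjusted p = 6.43e-05). Against TBI+ rats 1 to 4 alone, whose library numbers share the run of the sham libraries, it was 2.65 (SE 0.38, adjusted p = 6.76e-10). That fit held fewer rats and estimated the spread anew, so its smaller p is not stronger evidence than that of all 20 rats.

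The 3p arm gave the same direction. Its mean in TBI rats was 28.9 CPM, where the 5p count divided by 2 gave 39.7 CPM. Sham rats stood at 0, 6.11, 2.98 and 9.76 CPM of miR-129-2-3p on D2, from 0, 8, 2 and 13 reads. TBI+ rats ranged from 15.9 CPM through a median of 28.9 to 73.4, and TBI− rats from 5.37 CPM through a median of 29.8 to 44.5. All 7 TBI+ rats and 7 of the 9 TBI− rats were above the highest sham rat, so the groups overlapped in TBI− rats 2 and 6, at 5.37 and 9.59 CPM. The mean was 28.9 ± 16.0 CPM (n = 16) against 4.71 ± 4.19 CPM (n = 4), with a log2FC of 2.52 (SE 0.53, adjusted p = 0.00273). The exact permutation test gave p = 0.0105, adjusted 0.0415. The row of miR-129-1-3p, from nearly the same reads, had a log2FC of 2.52 (SE 0.52, adjusted p = 0.00252) and adds no separate evidence.

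**Figure D1:**
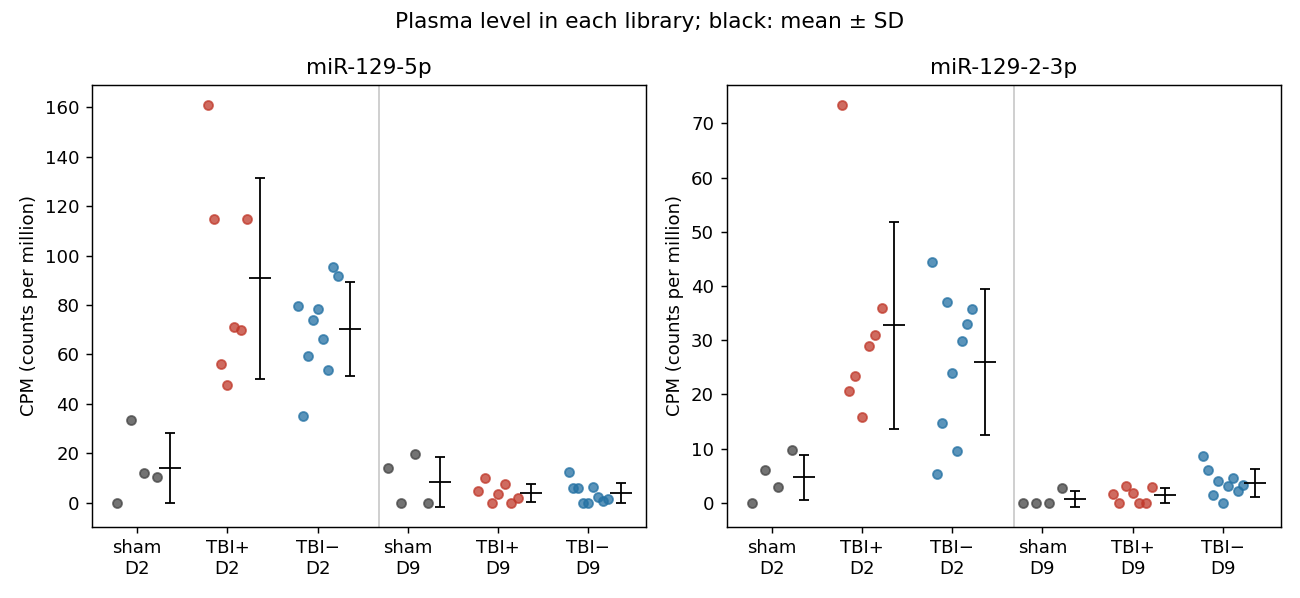
Level of miR-129-5p (left) and miR-129-2-3p (right) in each of the 40 libraries, in CPM on a linear axis, by group and day; each point is a rat and the black bar is the mean ± SD of its group. On D2 every TBI rat lies above the 4 sham rats for miR-129-5p, while 2 TBI− rats lie below the highest sham rat for miR-129-2-3p; on D9 no TBI rat exceeds 12.4 CPM in either panel.

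Ranked by mean CPM with its count divided by 2, miR-129-5p was number 174 of the 522 miRNAs detected in TBI+ rats on D2 and number 281 of 481 in sham rats. On D9 it was number 347 of 502 in TBI+ rats. With the count as deposited, these ranks were 141, 239 and 309. The family therefore made up a small part of plasma miRNA also where it was highest. Pooled over the rats of a group, with the 5p count divided by 2, the D2 rate in TBI rats was 4.91 times that in sham rats (95% interval 3.47 to 7.18) for 5p and 5.50 times (3.63 to 8.73) for 3p, where the exact intervals cover counting error only.

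The D2 increase was present in each outcome group. In a fit with 3 groups, TBI+ against sham, which called 3.19% of miRNAs, gave a log2FC of 2.59 for miR-129-5p (SE 0.47, adjusted p = 0.000476) and 2.65 for miR-129-2-3p (SE 0.55, adjusted p = 0.00258), where 2.30% were called higher. TBI− against sham, which called 6.19%, gave 2.32 (SE 0.45, adjusted p = 0.00112) and 2.41 (SE 0.54, adjusted p = 0.00426), where 3.19% were called higher. These comparisons share the 4 sham libraries. Without sham rat 2 they gave 3.57 and 3.30 for miR-129-5p.

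Whether the early plasma level was related to later epilepsy is the question of the TBI+ and TBI− comparison. The mean of miR-129-5p on D2 was 90.9 ± 40.9 CPM in TBI+ rats (SD, n = 7) and 70.4 ± 19.1 CPM in TBI− rats (n = 9). The 3 highest rats were TBI+ rats 1, 2 and 7, at 161, 115 and 115 CPM, and the other 4 TBI+ rats overlapped with the TBI− rats. The log2FC was 0.27 (SE 0.32, adjusted p = 0.881), and the exact permutation test gave p = 0.207. For miR-129-2-3p the log2FC was 0.24 (SE 0.36, adjusted p = 0.894), with 32.7 ± 19.2 CPM against 26.0 ± 13.4 CPM. By edgeR no miRNA was called in this comparison (0%), and 38 had an unadjusted p below 0.05.

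On D9 the members were near the limit of the libraries in every group. Sham rats had 2, 0, 4 and 0 reads of miR-129-5p, or 14.2, 0, 19.8 and 0 CPM. TBI+ rats ranged from 0 through a median of 3.67 to 9.81 CPM, and TBI− rats from 0 through 2.25 to 12.4 CPM. Reads were found in 2 of 4 sham and 12 of 16 TBI libraries, and in TBI rats the count never exceeded 12. The edgeR log2FC of TBI against sham was −0.95 (SE 1.06, adjusted p = 0.770), where 3.51% of 541 miRNAs were called. Against sham the TBI+ rats alone had −0.98 (SE 1.14, adjusted p = 0.780; 1.85% called) and the TBI− rats −0.93 (SE 1.10, adjusted p = 0.790; 4.81% called). The direction rested on sham rat 3, without which it was 0.14 (SE 1.45, adjusted p = 0.951). The pooled rate in TBI rats was 0.451 times that of sham, with an exact interval from 0.141 to 2.30 that covers counting error only.

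The 3p arm on D9 had a single read in the sham group, in sham rat 4 (2.79 CPM), and 51 reads of miR-129-2-3p in 12 of the 16 TBI libraries. The log2FC was 1.27 (SE 1.36, adjusted p = 0.748). Without sham rat 4 no sham read was left, and the fitted value of 4.55 (SE 3.01, adjusted p = 0.467) is then no measured fold. The pooled ratio of 2.16 had an interval from 0.370 to 86.8. Between the outcome groups, miR-129-2-3p stood at 1.34 ± 1.37 CPM in TBI+ rats (n = 7) and 3.68 ± 2.57 CPM in TBI− rats (n = 9). The exact permutation test of that difference gave p = 0.0448, which did not pass adjustment over the 24 tests (0.108), and edgeR gave a log2FC of −1.13 (SE 0.70, adjusted p = 0.812). For miR-129-5p the same comparison gave −0.05 (SE 0.74, adjusted p = 0.995). By edgeR 0 of 541 miRNAs were called, and 22 had an unadjusted p below 0.05.

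**Figure D2:**
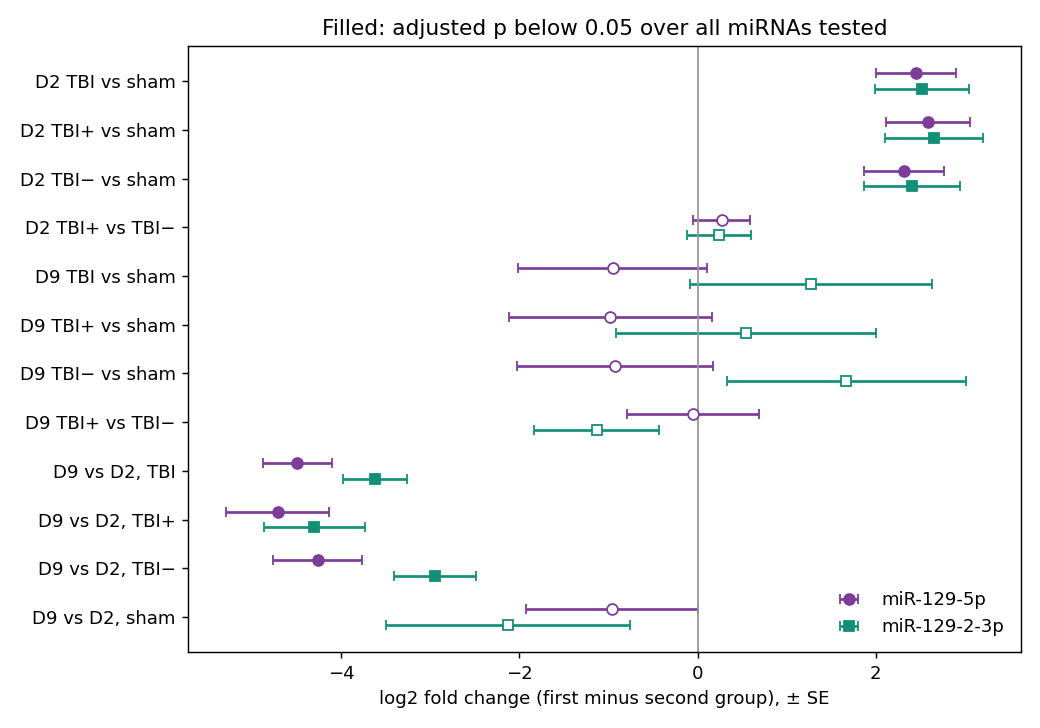
Log2 fold changes of miR-129-5p (circles) and miR-129-2-3p (squares) with their SE for 12 comparisons from the edgeR fits; filled symbols have an adjusted p below 0.05. Filled symbols stand at 2.32 to 2.65 for the D2 comparisons with sham and at −4.71 to −2.95 for D9 against D2 in TBI rats, and the symbols of all other comparisons are open.

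The same rats were bled on both days, so the change can be read within each rat. Between D2 and D9, miR-129-5p fell in all 16 TBI rats. TBI+ rat 1 went from 161 to 4.61 CPM and TBI− rat 8 from 95.3 to 0.698 CPM, whereas the smallest falls were in TBI− rats 1 and 2, from 79.7 to 12.4 CPM and from 34.9 to 6.02 CPM. TBI+ rats 3 and 6 and TBI− rats 4 and 5 had no read on D9. Every TBI library of D9 was below every TBI library of D2, at most 12.4 against at least 34.9 CPM. That held for 6 of 581 miRNAs (1.03%), and 21 (3.61%) were lower on D9 in each of the 16 rats.

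In the fit over all 40 libraries, miR-129-5p was lower on D9 than on D2 in TBI rats by a log2FC of −4.49 (SE 0.39, adjusted p = 1.26e-13), or 22.4-fold. For miR-129-2-3p it was −3.62 (SE 0.36, adjusted p = 7.86e-12), or 12.3-fold. Of the 581 miRNAs, 32.5% were called in this comparison and 18.4% were called lower. Within rats, log2(CPM + 1) of miR-129-5p changed by −4.44 ± 1.42 (SD, n = 16; exact sign-flip permutation p = 3.05e-05, the smallest it can give). For miR-129-2-3p the change was −3.15 ± 1.41, lower in 15 of 16 rats (exact p = 6.10e-05), and TBI− rat 2 went from 5.37 to 6.02 CPM. Both were 0.000244 after adjustment over 12 tests.

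The fall was called in each outcome group. For miR-129-5p it was −4.71 in TBI+ rats (SE 0.58, adjusted p = 2.53e-08) and −4.26 in TBI− rats (SE 0.50, adjusted p = 5.81e-09). For miR-129-2-3p it was −4.30 (SE 0.57, adjusted p = 4.81e-08) and −2.95 (SE 0.46, adjusted p = 1.94e-06). In these comparisons 16.0% and 20.1% of miRNAs were called, and 11.2% and 12.9% were called lower. The difference between the falls was not called, at −0.45 (SE 0.77, adjusted p = 0.989) for 5p and −1.35 (SE 0.73, adjusted p = 0.647) for 3p.

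**Figure D3:**
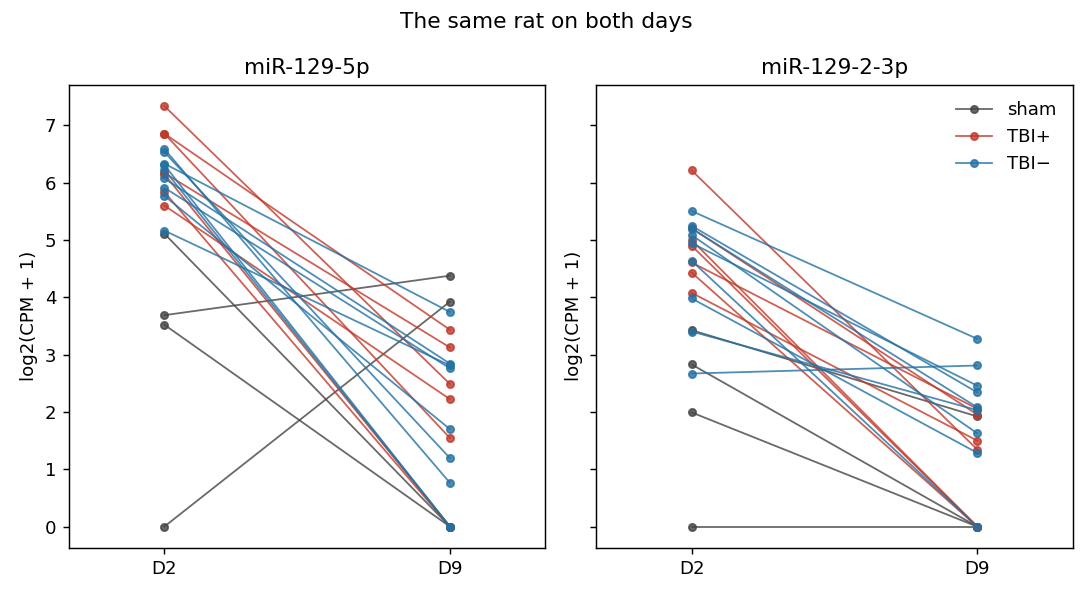
Level of miR-129-5p (left) and miR-129-2-3p (right) on D2 and D9 as log2(CPM + 1); each line joins the libraries of 1 rat. All 16 TBI lines fall for miR-129-5p and 15 of 16 for miR-129-2-3p, while of the 4 sham lines of miR-129-5p 2 rise and 2 fall.

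In sham rats, miR-129-5p went from 0 to 14.2, from 33.6 to 0, from 11.9 to 19.8 and from 10.5 to 0 CPM in rats 1 to 4. The directions were split, and the values of rats 1 and 3 on D9 came from 2 and 4 reads. The log2FC of D9 against D2 was −0.96 (SE 0.97, adjusted p = 0.676) for 5p and −2.13 (SE 1.37, adjusted p = 0.452) for 3p, where 5.68% of miRNAs were called. Without sham rat 4 no 3p read was left in sham rats on D9. The fitted 3p value of −4.92 (adjusted p = 0.457) is then no measured fold. The exact paired test gave p = 0.75 for 5p and 0.25 for 3p, and with 4 rats it cannot reach 0.05. The change in TBI rats minus that in sham rats was −3.53 for miR-129-5p (SE 1.25, adjusted p = 0.102), which was not called, in a comparison that called 3.27% of miRNAs. With the rat as a block it was −3.89 (SE 0.95, adjusted p = 0.00694) and was called. It was also called without sham rat 2 (−4.65, adjusted p = 0.0368) and not without sham rat 3 (−2.23, adjusted p = 0.744). For miR-129-2-3p the difference was −1.49 (SE 2.04, adjusted p = 0.938).

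The depth of the libraries differed by group on D9, so each was also drawn down to 140636 counts. At that depth miR-129-5p had 5 to 22 reads in each of the 16 TBI libraries of D2, 201 in all. It had 13 reads in 7 of the 16 TBI libraries of D9. Sham libraries had 4 reads in 3 of 4 on D2 and 6 reads in 2 of 4 on D9. In this single random draw the D2 libraries of TBI rats remained apart from the other 3 sets for miR-129-5p. The gap was narrow, with at least 5 reads against at most 4 in a sham library of D9. The 3p arm had 57 reads of miR-129-2-3p in 14 of the 16 TBI libraries of D2 and 2 reads in 2 of D9. Sham libraries had 3 reads on D2 and none on D9. For 3p the sets overlapped, since some TBI libraries of D2 had no read.

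The arms were compared within libraries, where scaling has no part. With the 5p count divided by 2, 5p made up 56.2% of the family's reads in TBI rats on D2 (exact binomial 95% interval 53.7 to 58.7%, from 868 and 677 reads). In TBI+ rats it was 56.5% and in TBI− rats 55.8%. In sham rats of D2 it was 58.9% (45.0 to 71.9%, from 33 and 23 reads). In the 13 TBI libraries of D2 with at least 10 reads on both arms, log2 of 5p over 3p was 0.47 ± 0.56 and lay above 0 in 10. The TBI+ and TBI− libraries among them differed by 0.05 (exact permutation p = 0.861). No library of D9 and 1 sham library of D2 had that many reads, so the ratio was not compared between those groups.

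**Figure D4:**
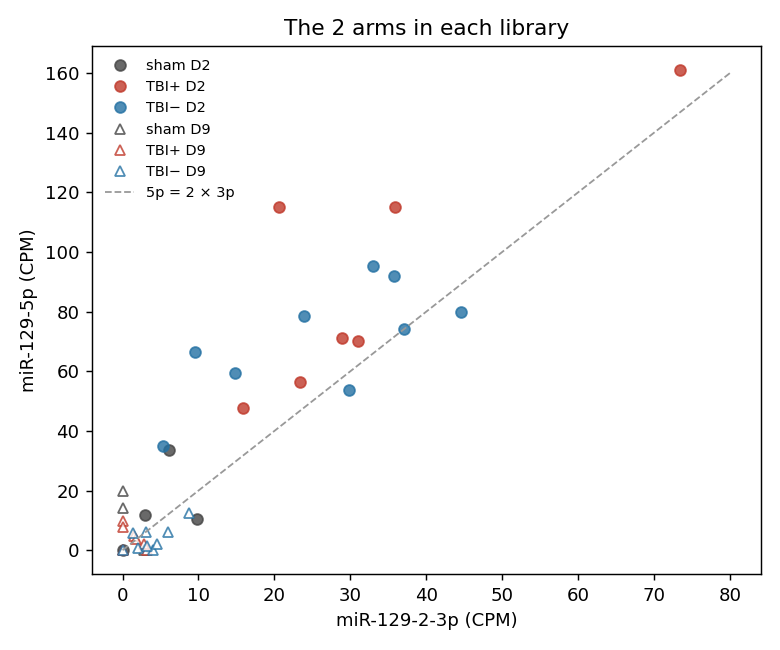
Level of miR-129-5p against miR-129-2-3p in each library, both in CPM; filled circles are D2, open triangles are D9, and the dashed line marks a 5p row at 2 times the 3p row. The TBI libraries of D2 spread upwards along the line, with TBI+ rat 1 highest at 161 and 73.4 CPM, and the libraries of D9 lie near the origin.

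Across the 16 TBI rats on D2 the arms rose and fell together, with Pearson r = 0.76 (permutation p = 0.00083, adjusted over 6 relations 0.00498) and Spearman rho = 0.66 (permutation p = 0.00653, adjusted 0.0392). Without the 2 rats farthest from the median of 5p, r was 0.45 (permutation p = 0.108), so the relation rests in part on those rats. Within the second run of library numbers, which held 9 of these libraries, r was 0.82 (exact permutation p = 0.00395). On D9, where counts were near 0, r was 0.16 (permutation p = 0.544). The D2 level of a rat was not related to its D9 level, with r = 0.01 for 5p (permutation p = 0.959) and −0.10 for 3p (permutation p = 0.701). On D2, miR-129-5p was also not related to miR-124-3p (r = 0.19, permutation p = 0.495) or to the miR-451-5p over miR-23a-3p index (r = −0.05, permutation p = 0.841). All 4 of these relations had an adjusted p of 0.959.

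Over all 40 libraries, the profiles most like that of miR-129-5p, apart from its own 3p arm (rho 0.80), were miR-668, miR-323-3p, miR-133a-5p, miR-133b-3p and miR-127-3p. Their Spearman rho ran from 0.73 to 0.80 among 330 miRNAs with a read in at least 80% of libraries. miR-133a-5p and miR-133b-3p, at 0.76 and 0.74, belong to a family best known from skeletal and heart muscle. In TBI against sham on D2 they were not called, with a log2FC of 0.30 (SE 0.35, adjusted p = 0.650) and 0.78 (SE 0.40, adjusted p = 0.293). These values are a description, since the libraries share the group and day differences given above. Within the 16 TBI libraries of D2, of 7 TBI+ and 9 TBI− rats and from 3 runs of library numbers, the order was miR-1306-5p at 0.77, miR-25-5p and miR-323-3p at 0.61, miR-99b-3p at 0.59 and miR-150-3p at 0.56. miR-323-3p was in both lists.

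The other brain-enriched miRNAs were taken from a list of 20, of which 18 had reads on D2. The list was chosen with earlier results of these data known. It includes miRNAs that the study had already reported as raised on D2, so counts over it are a description and no separate evidence. In TBI against sham on D2, 8 of the 18 were called higher and 0 lower, where 3.19% of all miRNAs tested were called higher. The median log2FC was 1.22 (1.20 over the 15 with a sham read) against 0.09 for all miRNAs tested. The arms of miR-124, the most abundant neuronal miRNA in brain, had no read in any sham library of either day. miR-124-3p stood at 31.1 ± 16.1 CPM in TBI rats on D2 (SD, n = 16; 675 reads), near the level of the 3p arm of miR-129, and had 12 reads in 4 TBI libraries on D9. Unlike miR-124, miR-129-5p was found in 3 of the 4 sham rats on D2.

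The other 6 that rose on D2 had smaller fold changes than miR-129. miR-132-3p and miR-212-3p, which come from a cluster induced by neuronal activity, had a log2FC of 1.30 (SE 0.29) and 1.24 (SE 0.27), both with an adjusted p of 0.00392. The imprinted Dlk1-Dio3 region gave miR-323-3p at 1.50 (SE 0.42), miR-433-3p at 1.47 (SE 0.41), miR-127-3p at 1.20 (SE 0.24) and miR-136-3p at 1.09 (SE 0.26). Whether these fold changes differ from that of miR-129 was not tested. Members of the list that were not called included miR-128-3p at 0.29 (SE 0.25, adjusted p = 0.563), miR-138-5p at −0.05 (SE 0.22, adjusted p = 0.930) and miR-137-3p at 2.95 (SE 0.99, adjusted p = 0.0804). miR-9a-3p and miR-434-3p had no read in any library. The study detected both by quantitative PCR in plasma of these rats, at higher levels after TBI, so the lack of reads does not show absence.

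On D9, 0 of the 17 listed miRNAs with reads were called in TBI against sham by edgeR, and 1 had an unadjusted p below 0.05. It was miR-128-3p, just short of a call at 1.32 (SE 0.39, adjusted p = 0.0501), which the study called higher on D9 in its own analysis. The median was 0.00 (−0.21 over the 15 with a sham read) against 0.30 for all. Between D2 and D9 in TBI rats, 11 of 18 were called lower and 1 higher, where 18.4% of all miRNAs were called lower and 14.1% higher, with a median of −1.15 against 0.05 for all miRNAs. Those lower included miR-124-3p at −5.38 (SE 0.47), miR-323-3p at −3.03 (SE 0.33), miR-137-3p at −2.20 (SE 0.51) and miR-127-3p at −1.26 (SE 0.22). The 1 called higher was miR-488-3p at 1.28 (SE 0.31, adjusted p = 0.000853). The fitted falls of miR-129-5p and of the 3p arm, −4.49 and −3.62, lay between those of miR-124-3p and miR-323-3p.

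**Figure D5:**
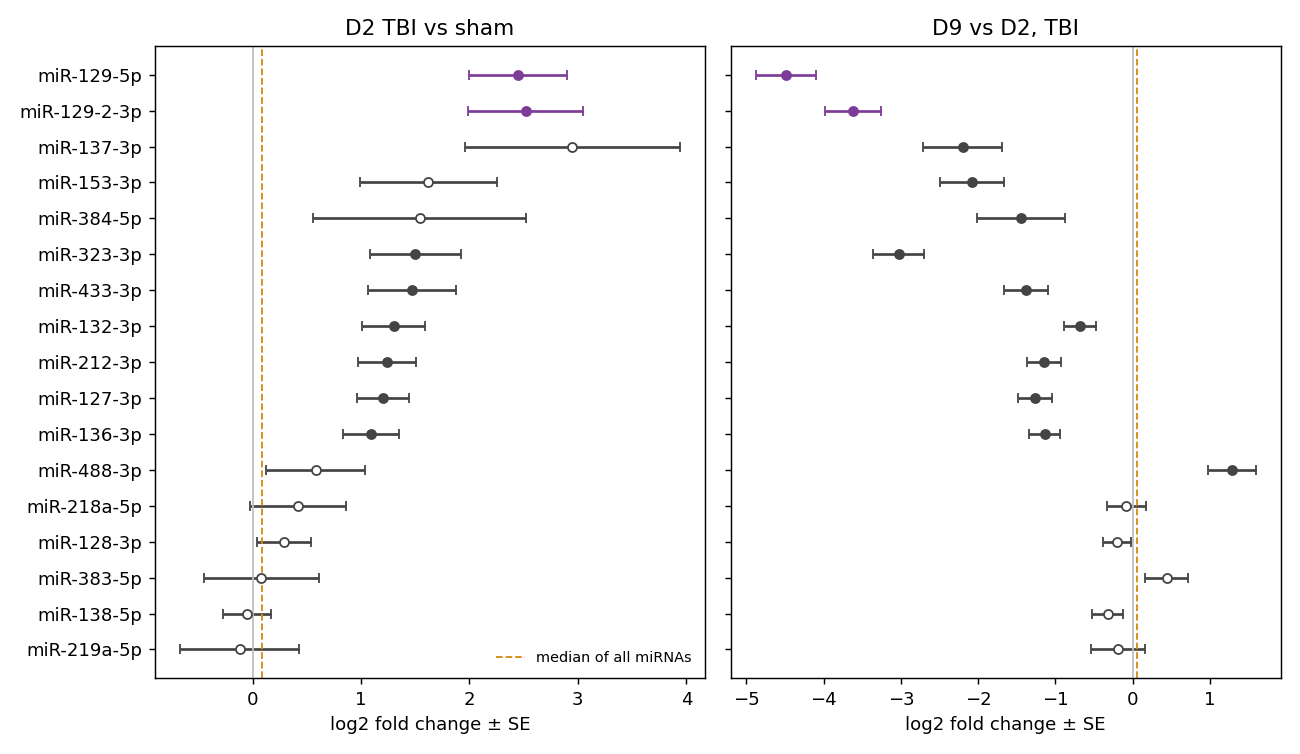
Log2 fold changes with SE of miR-129-5p and miR-129-2-3p (purple) and of the 15 listed brain-enriched miRNAs with a sham read (grey), for TBI against sham on D2 (left) and D9 against D2 in TBI rats (right); filled points have an adjusted p below 0.05, the dashed line is the median of all miRNAs, and both arms of miR-124 and miR-9a-5p are left out because no sham library held a read. miR-129 lies near 2.5 on the left and at −4.49 and −3.62 on the right, and miR-488-3p is the only filled point above 0 on the right.

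Markers of other sources of plasma miRNA were read beside the D2 difference. Of the red blood cell list, 0 of 4 with reads were called, and the summed level ran from 22467 to 31913 CPM in sham rats and from 10781 to 48279 CPM in TBI rats. Of the leukocyte and platelet list, 1 of 5 was called, lower (miR-150-5p, log2FC −0.85, SE 0.26, adjusted p = 0.0443). Their summed level ran from 40442 to 71529 CPM in sham and from 13792 to 52751 CPM in TBI rats. None of 2 liver, 2 muscle and 2 neuroendocrine miRNAs with reads was called. The liver marker miR-122-5p and the muscle markers miR-1-3p and miR-133a-3p were at 0 in all 40 libraries. These rows cannot be read as absence from plasma, since miR-133a-5p, the other arm of miR-133a, had a read in at least 80% of libraries. With the red blood cell index as a covariate the D2 log2FC of miR-129-5p was 2.53 (SE 0.45, adjusted p = 0.000463).

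Between D2 and D9 these sources moved with the day in TBI rats. Of all miRNAs, 14.1% were called higher. All 4 red blood cell miRNAs rose, with miR-451-5p at a log2FC of 0.87 (SE 0.23, adjusted p = 0.00259), and 4 of 5 leukocyte and platelet miRNAs rose, with miR-142-3p at 1.51 (SE 0.29, adjusted p = 3.81e-05). A liver miRNA, miR-194-5p, rose by 0.85 (SE 0.27, adjusted p = 0.0115). Of the muscle list, 0 of 2 with reads were called, with log2FC values of −1.04 (SE 0.46, adjusted p = 0.0770) for miR-499-5p and −1.18 (SE 0.62, adjusted p = 0.152) for miR-206-3p. Their summed level ran from 0.458 to 18.9 CPM in TBI rats on D2 and from 0 to 6.92 CPM on D9. The muscle miRNAs miR-133a-5p and miR-133b-3p, which were not on that list, fell, with a log2FC of −3.80 (SE 0.38, adjusted p = 5.70e-12) and −2.73 (SE 0.26, adjusted p = 2.04e-12). The part of these sources in the fall of miR-129 was not tested.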

How the data were processed

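Small RNA libraries (TruSeq Small RNA) were made from plasma of 20 rats on D2 and D9. The deposited matrix holds raw read counts, which the authors made by trimming with Trimmomatic 0.36, dropping reads under 17 nt, aligning to rat genome Rno6 with Bowtie2 and counting on miRBase annotation with featureCounts; per the labels, FastQC 11.8 and Subread were also used. Replicates are separate rats. The members and lists were chosen with earlier results of these data known.

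Counts were fitted with edgeR 4.0.16 (R 4.3.3): TMM scaling, quasi-likelihood test, Benjamini-Hochberg adjustment over all miRNAs with a read that day (565 on D2, 541 on D9) or on any day (581), called below 0.05 and with no filter on low values. TBI and sham were fitted as 2 groups, the outcome groups as 3, and the days as 6 groups without a block. SE is the log2FC over the root of F. The fits were tested on simulated counts, with changes planted only in miRNAs of at least 5 reads on average. On D9 the members lay below that, so the simulation does not cover their comparisons within D9. Exact permutation tests used CPM, and log2(CPM + 1) within rats (pseudocount 1), by going through all arrangements with numpy 2.4.6. Permutation tests of correlations used 100000 resamples. The exact intervals and Spearman rho came from scipy 1.17.1. Intervals are 95% and cover counting error only. Named miRNAs were the members, listed miRNAs that passed and up to 4 that did not, and the 5 most like miR-129-5p. Alternatives were DESeq2 1.42.0, other scalings, filterByExpr, thinning, covariates, blocks and leaving out each sham rat. Rats pair the days because each was bled on both. Their D2 and D9 deviations correlated from −0.345 to 0.403 (median −0.0551, 5 of 20 above 0.1), so the counts themselves showed little likeness within rats.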

Additional observations from a re-analysis of the deposited data

Results flagged for a closer look

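In 5 of 18 combinations of member, group and day, 1 rat lay far from the others. 4 of the 5 are the 3p rows, which hold nearly the same reads, so they come from 3 rats. Chance flags about 1 in 20 independent groups, and these groups are not independent. TBI+ rat 1 stood far above the other TBI+ rats of D2 for the 3p arm, at 73.4 CPM of miR-129-2-3p and 71.7 CPM of miR-129-1-3p, where the next rat had 35.9 CPM. These are 123 and 120 reads, and the same library was also the highest for miR-129-5p, at 161 CPM. Sham rat 4 on D9, at 2.79 CPM of miR-129-1-3p and 2.79 CPM of miR-129-2-3p, held the only 3p read of its group, and a lone value above 0 always stands apart in this way. TBI− rat 1 on D9, at 12.4 CPM of miR-129-5p from 10 reads, was above the next TBI− rat at 6.18 CPM.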

How the results depend on the processing

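Over the alternatives, 482 refits of the member log2FC values kept direction and call in 466; 4 gained the call, 12 changed direction (none of them called) and 0 lost a call. All D2 calls against sham and all D9 against D2 calls in TBI rats held, at 2.09 to 3.42 for miR-129-5p and 2.20 to 3.21 for miR-129-2-3p in TBI against sham. Thinning to the smallest library moved the D2 value of miR-129-2-3p to 3.21, and that of miR-129-5p for D9 against D2 in TBI rats to −3.74. The change of miR-129-5p in TBI against sham rats was called with DESeq2 (−3.89, adjusted p = 0.00347), after thinning (−4.47, 0.0218), with the rat as replicate block (−3.89, 0.00694) and when sham rat 2 was left out, within −4.65 to −2.23 over the 4 sham rats. The rat block changed no other call of a member. Animal numbers paired nothing (3 of 15 pairs of D2 and 4 of 15 of D9 above 0.1), and as a block they changed no member call.

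Directions that turned were those of values near 0 reads. With each sham rat left out, the log2FC of miR-129-5p on D9 against sham ran from −1.52 to 0.14 (TBI), −1.55 to 0.10 (TBI+) and −1.50 to 0.16 (TBI−), that of miR-129-5p for D9 against D2 in sham rats from −2.26 to 0.21, and the TBI against sham change from −1.74 to 1.30 for miR-129-2-3p and −1.76 to 1.28 for miR-129-1-3p. On D9, TBI+ against sham was −0.04 for miR-129-2-3p and −0.05 for miR-129-1-3p with DESeq2, and TBI+ against TBI− for miR-129-5p was 0.08 after thinning and 0.01 with the red blood cell index. After thinning, D9 against D2 in sham rats was 0.73 for miR-129-5p, and the TBI+ against TBI− change was 0.24 for miR-129-2-3p.

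The percent of miRNAs called moved more. Scaling to miR-28-3p gave 4.07% for TBI against sham on D2 (6.19% as reported) and 5.36% on D9 (3.51%), and scaling moved the median of all miRNAs by up to −0.20 on D9. DESeq2 gave 6.02% for TBI+ against sham on D2 (3.19%) and 0.172% for the TBI+ against TBI− day change (0%). Thinning gave 4.30% for TBI− against sham on D2 (6.19%), 21.8%, 8.37% and 13.2% for D9 against D2 in TBI, TBI+ and TBI− rats (32.5%, 16.0% and 20.1%) and 1.75% for the TBI against sham change (3.27%). With animal number as replicate block, TBI, TBI+ and TBI− against sham on D9 gave 1.29%, 0.739% and 1.11% (3.51%, 1.85% and 4.81%), and TBI+ against TBI− on D2 gave 0.531% (0%). On D9, TBI+ against sham gave 2.96% with RLE and 1.09% with filterByExpr, and TBI against sham 2.05% within the shared run of library numbers. With each sham rat left out, TBI, TBI+ and TBI− against sham gave 3.73 to 5.51%, 1.95 to 3.20% and 4.09 to 5.15% on D2, with sham rat 1 lowest, and 0 to 4.25%, 0 to 2.77% and 0 to 3.89% on D9, with sham rat 2 lowest. D9 against D2 gave 0.345 to 7.48% in sham rats, lowest without sham rat 2, and 1.90 to 2.09% for the TBI against sham change. The cause was not tested.

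Of the correlations, that of the arms on D2 fell to 0.45 without the 2 farthest rats; 3p on D2 with D9 turned to 0.29 and 5p with miR-124-3p to −0.18. Within the second run of library numbers, 5p on D2 with D9 was −0.28 and 5p with the red blood cell index 0.02. On D9 depth limits the sham group most: 3 reads there exceed the levels of most TBI rats.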

Other observations

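The balance of the arms on D9 was looked at after the data were seen. With the 5p count divided by 2, 5p made up 38.6% of the family's reads pooled over TBI rats on D9 (exact binomial 95% interval 28.1 to 49.9%, from 32 and 51 reads), against 56.2% (53.7 to 58.7%) on D2. Over the 14 TBI rats with a family read on both days, the 5p share averaged 59.8% on D2 and 41.3% on D9, and it was lower on D9 in 10 rats, higher in 3 and equal in 1. The mean change was −18.6 percentage points (SD 30.2; exact sign-flip permutation p = 0.0413, not adjusted). The measure was chosen after its values were seen, and most D9 shares rest on fewer than 10 reads.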
